A study of Homo sapiens with 16 samples.

Results

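Reverse-transcription stops were compared between CMC-treated (CMC+) and untreated (CMC-) polyadenylated RNA of wild-type HCT116 cells, without the exonuclease step used elsewhere in the study. CMC is a water-soluble carbodiimide with a cyclohexyl and a morpholinoethyl arm, used as its tosylate salt. HCT116 is a human colorectal carcinoma line. There were 2 libraries per group, 4 of the 16 libraries of the series. Per the labels, RNA was fragmented to about 250 nt, and the CMC+ samples were incubated with 0.2 M CMC for 20 min. Untreated samples were incubated for the same time without CMC. Both groups were then kept in alkaline carbonate buffer for 6 h. Each of the 2 tables set one CMC+ library beside its same-numbered CMC- library. The members are the positions listed in both tables: 39679 of the 159887 positions listed in either, and of 719918 in all 10 tables of the series. Of these, 11806 were uridines (U). Many positions repeat in the tables as copies of one gene, so identical 31-base sequences were also counted once, which gave 9490 distinct uridines.

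Pseudouridine (Ψ) is an isomer of uridine made after transcription by stand-alone synthases or by the dyskerin complex guided by H/ACA small RNAs. It is abundant in ribosomal RNA (rRNA), spliceosomal small nuclear RNA (snRNA) and transfer RNA. CMC forms adducts with uridine, guanosine and Ψ; alkali removes the former and leaves the adduct on Ψ, where reverse transcriptase halts. A stop that rises with CMC is therefore taken as a readout of the adduct. Scaled stop reads can also move with coverage, and stops rose at some other bases too, as given below.

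For 15 distinct uridines the CMC+ stop reads rose at least 2-fold in the fit described below. The sequences of 14 are shown because they carry the main result. They are written 5′ to 3′ in the DNA letters of the deposited tables, with the stop base in capitals and coordinates in hg38. Bases of 18S and of the mitochondrial and U4 RNAs are counted along each RNA; those of 28S are counted along the annotated RNA28SN1 copy. The last 2 lines are the only other distinct sequences that rose; in each, the capital C lies directly 5′ of a uridine.
28S base 4530 (chr21:8401428-8401456, +): acgtgagctgggttTagaccgtcgtgaga
28S base 1863 (chr21:8398764-8398792, +): ctagtgggccacttTtggtaagcagaact
28S base 4577 (chr21:8401475-8401503, +): ctgatgatgtgttgTtgccatggtaatcc
28S base 5007 (chr21:8401906-8401934, +): cggggtttcgtacgTagcagagcagctcc
28S base 3849 (chr21:8217709-8217737, +): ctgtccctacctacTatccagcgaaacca
28S base 2633 (chr21:8399528-8399556, +): gggagagttctcttTtctttgtgaagggc
18S base 1056 (chr21:8393707-8393735, +): aggttcgaagacgaTcagataccgtcgta
MT-RNR2 base 1397 (chrM:3053-3081, +): agtcctacgtgatcTgagttcagaccgga
MT-ND4 base 395 (chrM:11144-11164, +): accttggctaTcatcacccga
RNU4-1 base 79 (chr12:120293145-120293173, -): aaaacttttcccaaTaccccgccgtgacg
RNU4-2 base 79 (chr12:120291811-120291839, -): aaaacttttcccaaTaccccgccatgacg
RNU4-1 base 72 (chr12:120293152-120293180, -): ctaattgaaaacttTtcccaataccccgc
RPL37A (chr2:216499382-216499398, +): gctctttctgTggcaaa
RPL19 (chr17:39201268-39201288, +): aaggtctggtTagaccccaat
MT-RNR2 base 1396 (chrM:3052-3080, +): aagtcctacgtgatCtgagttcagaccgg
18S base 118 (chr21:8209734-8209762, +): atcagttatggttcCtttggtcgctcgct

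The authors' tables give expected counts of stop reads and covering reads per position. The library totals behind their RPM values were 8940356 and 10230179 reads for the CMC- libraries and 8653048 and 9975735 for the CMC+ libraries. Stop reads at the listed positions summed to 584079 and 731253 in CMC- and to 663220 and 775678 in CMC+. Despite the selection for polyadenylated RNA, rRNA held 54.4% and 55.8% of these reads in CMC- and 48.4% and 50.7% in CMC+, so the groups did not overlap. Uridines held 28% in both CMC- libraries and 29.6% and 29.4% in CMC+. With 2 libraries a group, an exact permutation test cannot go below p = 0.333 for such a single value. The labelled cell type fits its markers in the tables: positions were listed in 7 of the 8 epithelial marker genes and in none of 9 genes of fibroblasts, leukocytes, endothelium or red cells.

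Stop reads were scaled to their sum over the listed positions and tested with edgeR's quasi-likelihood test. A position was called at a Benjamini-Hochberg adjusted p under 0.05, over all tested positions of all bases, and a fold of at least 2. Positions were tested where 2 or more libraries had 10 or more stop reads, 20660 in all, of which 5893 were U. CMC raised 28 of them, or 0.475% of tested U, and lowered 0. The count of falls is limited by the listing, which leaves out a position whose stops fell at constant coverage. A log2 change above 0 was seen at 50.1% of tested U and 35.9% of other bases. Before adjustment, 263 U had p under 0.05 on the higher side and 187 on the lower. Of 14767 tested positions with another base, 4 rose (0.0271%) and 18 fell (0.122%). With TMM scaling of edgeR the split of other bases was 5 higher and 12 lower, and with the library totals behind RPM it was 5 and 3. DESeq2 called 12 U higher, 7 of them among the 28, and 0 other bases in either direction. It gave an adjusted p to only 320 U and 713 other bases. With its filter on mean counts turned off, an alternative chosen after seeing the data, it called the same number of U and 1 other base. Of the 15 distinct uridines, at the copies named here, DESeq2 called 3 with or without that filter. Its log2 changes over the 15 were 1.07 to 2.75. Leaving out either CMC+ library, which leaves 1 library in that arm and no block, gave 0 calls in edgeR. The change at 28S base 4530 was then 1.19 and 1.5 on the log2 scale, beside 1.34 with both. Nothing in the labels says that replicates were separate cultures, so p-values measure the spread between these libraries only.

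The 28 positions are copies of the 15 sequences, of which 14 are above. The largest number were in rRNA: 6 in 28S, the RNA of the large cytoplasmic subunit, and 1 in 18S, that of the small subunit. By position, 16 of 1255 tested U annotated as 28S were called (1.27%). For 18S it was 2 of 514 (0.389%), beside 0.475% of all tested U. At 28S base 4530, scaled stop reads were 113 and 107 RPM (of the stop reads at listed positions) in CMC- and 311 and 249 RPM in CMC+. Its stop percent, stop reads over covering reads, was 1.66% and 1.47% without CMC and 7.68% and 5.94% with it. On both scales both CMC+ libraries lay above both CMC- libraries, and the log2 change of scaled stop reads was 1.34 ± 0.07 (SE) with an edgeR adjusted p of 0.00352. On the percent scale this order carries little information, because each table lists a position only if its stop ratio in CMC+ is not below that in CMC-. Stop percents of the groups did not overlap at 63.5% of all tested U and 55.0% of other bases, and scaled stop reads at 20.8% and 11.0%. Over the 15 uridines the mean stop percent was 2.59 to 7.49 times that of the controls, beside a median of 1.19 over all tested U; these 15 were chosen for their rise.

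The other 28S uridines moved by less. Their log2 changes were 1.22 at base 3849, 1.11 at base 4577, 1.07 at bases 5007 and 2633 and 1.00 at base 1863, the last one just inside the 2-fold rule. Just outside the fold limit, 18S base 1691 had a log2 change of 0.96 and the same adjusted p of 0.0034 as 28S base 1863. At base 1863 only 1 of its 3 listed copies was called. At 18S base 1056 stop percents were 2.02% and 1.79% in CMC- and 6.24% and 6.17% in CMC+, with a log2 change of scaled stops of 1.12 ± 0.05. With no fold minimum, 96 U (37 distinct) were higher at an adjusted p under 0.05 in edgeR and 12 (4 distinct) were lower. The listing limits the count of falls here too. The smallest of those rises was 0.58 on the log2 scale. The 10 uncalled U with the smallest p were all in rRNA, with log2 changes of 0.75 to 0.96 and edgeR adjusted p-values of 0.0034 to 0.0045. A ranking by p favours deep positions. Listed positions had a median of 37.8 control stop reads in 28S and 5.0 in nuclear mRNA other than that of ribosomal proteins.

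Of the 14 uridines shown, those of the small nuclear RNA U4 had the highest stop percents. U4 pairs with U6 in the spliceosome and is known to carry Ψ at bases 72 and 79. At RNU4-1 base 79 the stop percent was 16.2% and 10.5% in CMC- and 36.3% and 33.0% in CMC+. RNU4-2, another U4 gene whose printed window differs from that of RNU4-1 further 3′, went from 11.6% and 12.2% to 34.3% and 28.8% at the same base. At base 72, which both U4 genes share in sequence, values were 7.01% and 2.14% without CMC and 38.4% and 17.8% with it. All 3 U4 uridines rose, with log2 changes of 1.46, 1.49 and 2.26 and edgeR adjusted p-values of 0.0046, 0.0118 and 0.0108.

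Few positions of spliceosomal RNAs could be tested. U4 had 4 distinct tested U, of which 3 were called. The read minimum can be met by the CMC+ libraries alone, which can raise such a share. This was so at RNU4-1 base 72, with 4 and 2 stop reads in CMC- and 22.2 and 11.2 in CMC+. No U of U1 or U2 reached the read minimum, although 5 and 4 distinct ones were listed.

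In mitochondria, 1 uridine of the large-subunit rRNA MT-RNR2 and 1 of the mRNA of MT-ND4, a subunit of respiratory complex I, rose. MT-RNR2 base 1397 is a known Ψ made by RPUSD4. Its stop percent was 0.713% and 1.01% in CMC- and 3.21% and 2.99% in CMC+, a log2 change of scaled stops of 1.54 ± 0.14. The C at base 1396 rose alongside it, from 1.42% and 0.979% to 4.41% and 3.92%. MT-ND4 base 395, in the coding sequence, went from 0.861% and 1.10% to 2.69% and 3.20%, a log2 change of 1.36 ± 0.07 (edgeR adjusted p = 0.00352). These were 1 of 240 tested U of mitochondrial rRNA and 1 of 921 tested U of mitochondrial mRNA.

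Only 2 nuclear mRNAs held a called U, and both encode proteins of the large ribosomal subunit. RPL19 at chr17:39201278 had stop percents of 1.52% and 1.62% in CMC- and 14.3% and 9.21% in CMC+. Its log2 change of 2.61 ± 0.24 was the largest of the 15 (edgeR adjusted p = 0.012) and rests on 2.00 and 3.14 control stop reads. This SE is smaller than the counting error of so few reads. GENCODE 29 places this base in the coding sequence of 4 RPL19 transcripts and in 2 noncoding ones. RPL37A at chr2:216499392 went from 4.57% and 3.49% to 14.5% and 13.2%, a log2 change of 1.41 ± 0.15 (edgeR adjusted p = 0.0429). That base is coding in 8 transcripts and noncoding in 4. They were 2 of 623 tested U of ribosomal protein mRNAs. Both met the read minimum through their CMC+ libraries alone, with 7 and 8 control stop reads at RPL37A.

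**Figure D1:**
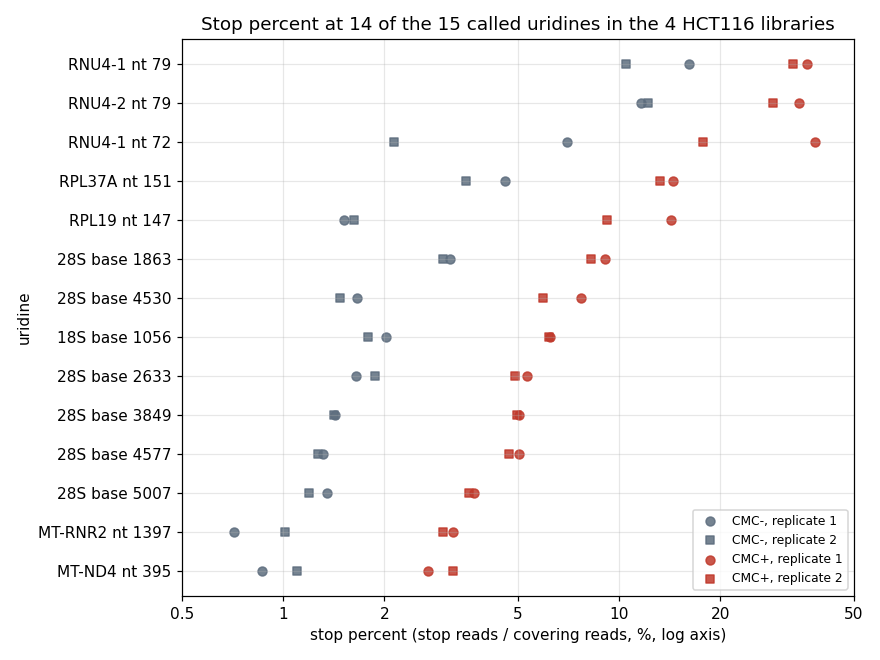
Stop percent (log axis) at 14 of the 15 called uridines; grey points are the 2 CMC- and red points the 2 CMC+ libraries, circles replicate 1 and squares replicate 2. At every uridine plotted both red points lie to the right of both grey ones, an order that the listing of positions fixes within each replicate, and the median over all 15 was 1.76% in CMC- and 6.81% in CMC+.

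Scaled stop reads also fell at some bases. All 7 distinct sequences that fell under CMC, none of them U, lay between 28S bases 3724 and 3750. At base 3725 (A), scaled stop reads were 60.5 and 60.6 RPM in CMC- and 25.8 and 27.2 RPM in CMC+, a log2 change of -1.18 ± 0.06 (edgeR adjusted p = 0.00494). Its stop percent stayed at 2.95% and 2.63% in CMC- and 2.99% and 2.85% in CMC+, so those groups overlapped. Covering reads at the 7 sequences, scaled the same way, fell by 0.81 to 0.95 on the log2 scale in replicate 1 and by 0.81 to 0.95 in replicate 2. That coverage fell with the stops is set by the listing, since a position whose stops fell at constant coverage would have a lower stop ratio and would not be listed. HEK293T cells had log2 changes of stops of -0.94, -0.83 and -0.72 at the 3 of the named sequences tested there, with 0 called.

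Stop reads were also tested with the covering reads as an offset, so that a change is one of the stop percent. This fit was added after the data were seen. It called 262 U (4.45%; 100 distinct) and 78 positions of other bases (0.528%; 29 distinct) higher and 0 lower, and it includes all 28 U above. The direction is not a result: in each table a position is listed only if the stop ratio in CMC+ is not below that in CMC-, and 99.8% of tested U and 99.6% of other bases had a log2 change above 0. What can be compared is the bases. A log2 change of at least 1 was seen at 5.63% of tested U and 1.25% of other bases, and on the scale of stop reads alone at 1.14% and 0.379%. Other bases pass the same listing rule, at 0.778% called for A, 0.245% for C and 0.61% for G.

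**Figure D2:**
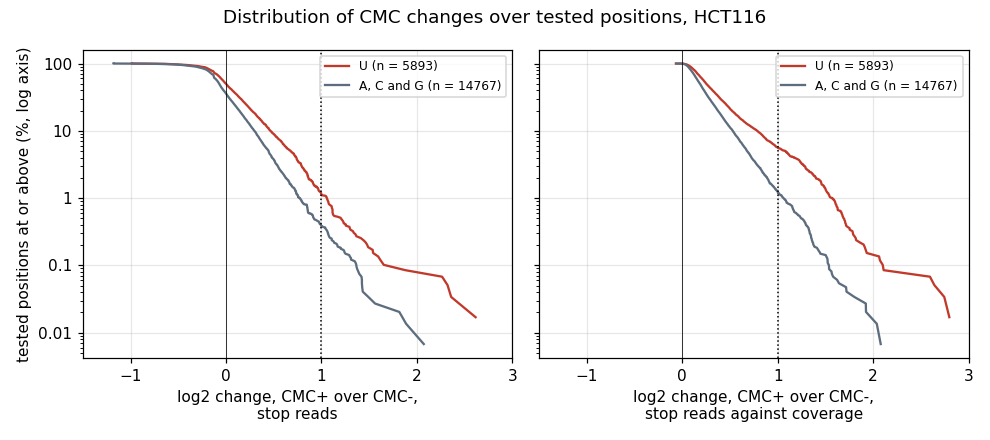
Percent of tested positions at or above each log2 change of CMC+ over CMC- (log vertical axis), for U in red and A, C and G in grey, with stop reads on the left and stop reads against coverage on the right; the dotted line marks 2-fold. Past that line lie 1.14% of U and 0.379% of other bases on the left and 5.63% and 1.25% on the right.

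Of the 100 distinct uridines called against coverage, 83 lay in cytoplasmic rRNA: 47 in 28S, 35 in 18S and 1 in 5.8S. On stop reads alone, 7 of the 83 had a log2 change of at least 1 and 1 was below 0. The median stop percent of the 47 in 28S was 1.52% in CMC- and 4.14% in CMC+, and that of the 35 in 18S 1.91% and 4.92%. By position, 13.2% of tested 18S U and 11.2% of 28S U were called, against 1.41% and 0.906% of the other bases of the same RNAs. At 18S base 1248, where mammals carry a hypermodified uridine built on Ψ, control stops were already the highest of the 18S calls at 6.20% and 5.14%, and CMC+ gave 12.7% and 11.5%. The 28S calls were unevenly placed. In bases 1 to 1500, 0 of the 77 tested U were called, in 3501 to 4000 it was 15 of 52 and in 4001 to 4500 it was 13 of 68. Scaled covering reads had median log2 changes of -0.25 and -0.31 in 3501 to 4000 and -0.23 and -0.21 in 4001 to 4500. In the windows of bases 1 to 1500 they were 0.07 to 0.17. Median log2 changes of stop reads at tested U were -0.21, -0.17 and, in bases 1 to 1500, -0.10 to -0.04. Coverage as a cause of this placement was not tested. The U at 5.8S base 68 went from 2.99% and 2.73% to 6.53% and 5.90%. Its pseudogene RNA5-8SP6 went from 8.41% and 7.24% to 16.0% and 13.8% at the same base, which was not called in either fit.

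The remaining 17 were outside cytoplasmic rRNA, 7 of them already described. Of 20 tested U in mitochondrial tRNAs, 4 were called, in MT-TH, MT-TY, MT-TQ and MT-TM, which carry histidine, tyrosine, glutamine and methionine. MT-TH at chrM:12173 went from 3.98% and 3.13% to 15.3% and 12.2%. It met the read minimum through its CMC+ libraries alone, with 4.62 and 4.0 control stop reads, which can raise the share called. MT-TY at chrM:5857 went from 3.45% and 6.81% to 19.4% and 18.1%. Neither passed the test on stop reads alone, with edgeR adjusted p-values of 0.0859 and 0.112. The 1 tested U of a nuclear tRNA, in tRNA-Asp-GTC-1-1, had 49.2% and 41.6% in CMC- and 70.4% and 58.1% in CMC+ and was not called in either fit.

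Small nucleolar RNAs and other noncoding RNAs gave single sites. Of distinct tested U, 2 of 14 in small nucleolar RNAs were called against coverage (14.3%). It was 1 of 48 in RN7SK and RNAs classed with it (2.08%) and 1 of 250 in long noncoding RNA (0.4%). The share over all distinct tested U was 2.4%. SNORD3A, the U3 RNA of pre-rRNA cleavage, went from 6.37% and 11.1% to 31.3% and 26.9% at its base 12. SNORD13, a guide for rRNA acetylation, went from 5.57% and 5.95% to 19.8% and 14.8%. In RN7SK, the scaffold that holds the elongation factor P-TEFb, the values were 7.53% and 4.28% without CMC and 15.3% and 12.3% with it. The nuclear RNA MALAT1 had 3.52% and 1.97% without and 13.1% and 8.19% with CMC. With 4.0 control stop reads in each library, MALAT1 met the read minimum through CMC+ alone. All 4 were called against coverage only. A second mitochondrial mRNA, MT-CO3 of cytochrome oxidase, was called there too, from 2.47% and 1.81% to 4.73% and 3.90%.

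**Figure D3:**
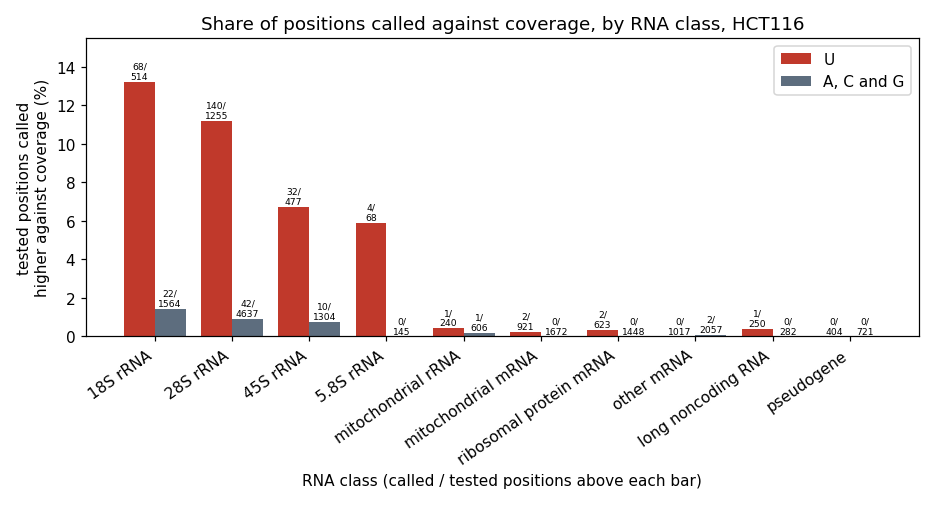
Percent of tested positions called higher against coverage in each RNA class, red for U and grey for A, C and G, with called and tested positions printed over each bar. The bars for U reach 13.2% in 18S and 11.2% in 28S and are at or below 0.417% in the mitochondrial rRNA and mRNA, nuclear mRNA, long noncoding and pseudogene classes.

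Nuclear mRNA other than that of ribosomal proteins had 1017 tested U and 0 called in either edgeR fit, and 0 with TMM, with library totals or by DESeq2 without its filter; with the filter, DESeq2 gave 1 of them an adjusted p. In edgeR, 36 were higher and 1 lower at p under 0.05 before adjustment on stop reads (3.54% higher, beside 4.46% of all tested U). Its tested positions were shallow: listed positions had a median of 94.8 control covering reads, against 2050 in 28S, and 759 of the 1017 averaged under 15 stop reads per library. Over all tested U, 0.603% were called against coverage at that depth, 4.32% at 15 to 30 reads, 8.15% at 30 to 60 and 10.7% at 60 or more. Other nuclear mRNA had 224 tested U at 15 to 30 reads and 33 at 30 to 60, also with 0 called. Depth as a cause of the missing calls was not tested. Of the lists examined, 206 U of translation factor mRNAs, 115 of glycolysis enzymes, 76 of heat shock and chaperone genes and 128 of cytoskeletal genes were tested. In edgeR, and in DESeq2 without its filter, 0 of these were called, and 13 of the 525 together were higher at p under 0.05 before adjustment. Their median log2 changes against coverage were 0.36, 0.44, 0.37 and 0.39, beside 0.39 over all tested U of other nuclear mRNA. No position of the dyskerin complex genes or of 12 Ψ synthase genes was listed. The U with the smallest p among other mRNAs was in PCBP2, an RNA-binding protein, with 5.87% and 2.83% in CMC- and 12.4% and 10.1% in CMC+ and an edgeR adjusted p of 0.277.

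Sequence contexts of the stand-alone synthases PUS7 and TRUB1 were searched on the RNA strand with the stop at a fixed letter. The context of PUS7, TNTAA or TNTAG with the stop at the second T, was present at 207 of the listed U (1.76% of those with a full window). Of 95 distinct tested ones, 5 were called against coverage (5.26%), beside 2.40% of all distinct tested U. On stop reads 1 was called, which by its printed sequence is 28S base 4530. With copies these were 13 and 3 positions. Called shares differed by RNA. Against coverage they were 14.3% of distinct tested U in 18S, 9.81% in 28S and 0.0% in other nuclear mRNA. The comparison was not matched for RNA class, so a link between the context and the calls was not tested. The context of TRUB1, GTTCNANNC with the stop at the second T, was present at 18 listed U. Only 5 of these were tested and 0 were called.

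The calls at other bases clustered next to called uridines. Of the 29 distinct sequences of A, C or G called against coverage, 23 (79.3%) had a called U one base to their 3′ side and 2 (6.9%) one base to their 5′ side. Among all 9556 distinct tested sequences of other bases the shares were 0.628% and 0.513%. The C at 18S base 118, printed above, went from 1.10% and 1.06% to 4.11% and 3.92%, while the uridine at base 119 after it, a known Ψ, went from 0.802% and 0.817% to 1.80% and 1.94%. In CMC+ the stop was thus higher at the C than at the U. At 28S base 4576, directly before the called U 4577, a G went from 1.31% and 1.16% to 3.36% and 3.09%, below the 5.02% and 4.71% of that U.

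The change fell off unevenly around the uridines. Over the 100 called against coverage, the median log2 change was 1.37 at the U, 0.90 one base 5′ and 0.62 at the next base 5′, and 0.41 one base 3′. Around all 4168 distinct tested U it was 0.24 one base 5′ and 0.23 one base 3′. Neighbouring positions share reads and some are themselves U, 28 of 89 at the 5′ base and 29 of 76 at the 3′ base. The position one base off was not tested as a cause of any call. Among calls with no called U beside them were HSP90AA1, a chaperone, at a C of chr14:102083693 that went from 2.86% and 2.06% to 10.1% and 11.0%, and H1F0, a linker histone, at a G in its 5′ UTR that went from 5.39% and 2.44% to 18.4% and 11.3%. These were chosen after their values were seen.

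**Figure D4:**
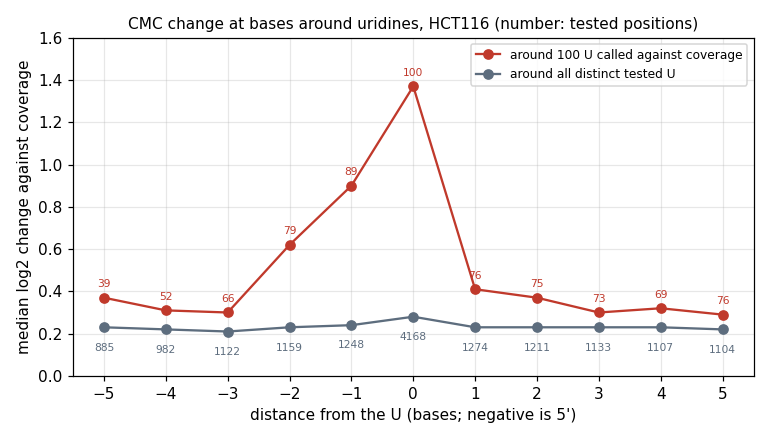
Median log2 change against coverage at each distance from a uridine, negative distances lying 5′; red is around the 100 U called against coverage, grey around all 4168 distinct tested U, and the number beside a point counts the tested positions. The red line has its peak of 1.37 at the U and is higher at -1 (0.90) than at +1 (0.41).

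HEK293T cells, a human embryonic kidney line, were treated alike in other libraries, which share none with HCT116. There edgeR called 15 of 7993 tested U higher (0.188%; 6 distinct) and 0 of 17660 other bases, of which 31 were higher and 212 lower at p under 0.05 before adjustment. Of the 15 HCT116 uridines, 14 were tested in HEK293T, all 14 had a log2 change above 0, and 4 were called. Positions of HEK293T are listed under the same rule on the stop ratio, which favours rises, so the direction there is a description. Against coverage, 9 of the 14 (64.3%) were called, beside 2.38% of all tested U and 0.0793% of other bases. Of the 6 distinct HEK293T calls, 4 were called in HCT116 and all 6 were called there against coverage. The count in HEK293T depends on single libraries: it was 0 without CMC- replicate 1 or CMC+ replicate 2, 1 without CMC- replicate 2 and 46 without CMC+ replicate 1.

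Within rRNA the lines shared sites. Of 76 rRNA uridines called against coverage in HCT116 and tested in HEK293T, 54 (71.1%) were called in HEK293T. Of 444 rRNA uridines not called in HCT116, 6 (1.35%) were. At 28S base 1863 HEK293T stop percents were 3.13% and 2.75% in CMC- and 10.4% and 10.0% in CMC+. At RNU4-1 base 72 they were 2.83% and 7.30% against 37.1% and 29.1%. MT-ND4 base 395 went from 2.19% and 2.20% to 3.53% and 3.55% in HEK293T, a log2 change of stops of 0.39 that was not called (edgeR adjusted p = 0.999).

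The difference between the lines was itself tested, as the interaction of line and CMC. Of 3604 tested U, edgeR called 0 (0.0%) in either direction. Before adjustment, 14 had p under 0.05 with the larger change in HCT116 and 2 with the smaller. At the 15 uridines the interaction ranged from -0.38 at 28S base 1863 to 1.63 at RPL19 on the log2 scale, with a median of 0.35, and 13 were above 0. These values are a description, since the 15 were chosen for their rise in HCT116. An adjusted p that misses the threshold does not show that the lines respond alike.

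**Figure D5:**
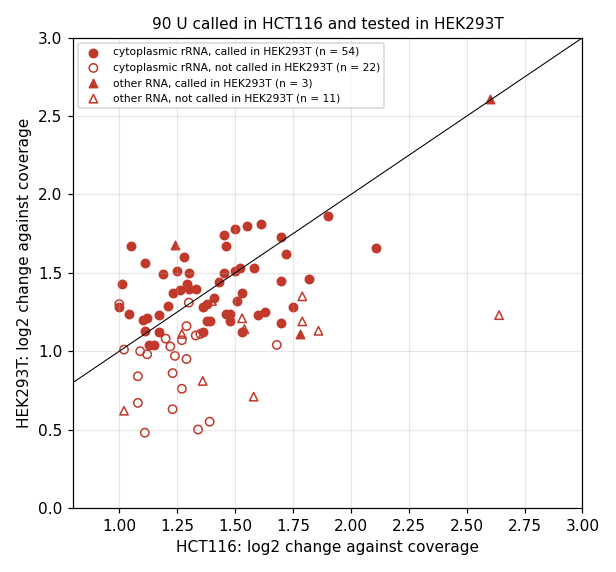
Log2 change against coverage in HEK293T over that in HCT116 for the 90 distinct U called against coverage in HCT116 and tested in HEK293T; circles are cytoplasmic rRNA, triangles other RNAs, filled symbols were also called in HEK293T, and the line marks equal change. Filled symbols make up 54 of 76 circles and 3 of 14 triangles.

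The same uridines were read out with Terminator, a 5′ exonuclease, in HCT116 and in HCT116-shDKC1 cells, which carry a knockdown of the Ψ synthase dyskerin. The HCT116 Terminator tables use the same CMC- libraries under another count of shared reads, so values are given side by side without a test. Over the 15 uridines the median stop percent was 6.81% with CMC alone, 11.0% with Terminator and 9.98% with Terminator in HCT116-shDKC1. Terminator values were above those of CMC alone at 14 of the 15 (93.3%), beside 87.7% of 1606 distinct tested U listed in all these tables and 86.3% of 2051 other bases. HCT116-shDKC1 values were below HCT116 at 14 (93.3%), beside 62.5% and 54.5%. They were below without overlap at 8 (53.3%), beside 22.6% and 15.7%. All 3 sets thus lean the same way, and the median ratio of HCT116-shDKC1 to HCT116 was 0.863 at the 15, 0.962 over tested U and 0.988 over other bases. The 15 were chosen for their rise in HCT116, so these shares are a description. At 28S base 4530 the Terminator libraries had 11.6% and 12.0% in HCT116 and 12.1% and 11.2% in HCT116-shDKC1, which overlap. RPL37A had 24.6% and 24.4% against 22.5% and 22.6%, and RNU4-1 base 79 had 38.8% and 39.0% against 32.2% and 25.9%, neither overlapping; these 3 were chosen after their values were seen.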

How the data were processed

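Stops were read from 2 deposited tables of HCT116 cells. Per the submitters' processing notes, cutadapt 2.8 and STAR were used, with build hg38; per the file headers, stops came from rtsSeeker. Per the file headers and values, the authors' stops and coverage here are expected counts, often fractional, and Terminator tables of HCT116 hold whole counts. Per the file headers, the authors also scaled stop reads to the library total as RPM; these values gave the library totals only. In the HCT116 Terminator tables the same CMC- libraries have control stop reads at or above the ones used here at 99.98% of shared positions, and the median ratio of those here to those there is 0.131 and 0.133 in rRNA. How multiply mapped reads were shared is not given in the sources used here. From the values, listed positions have at least 5 CMC+ stop reads, 1 control stop read and a stop ratio not below the control's.

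Expected counts were rounded and fitted with edgeR 4.0.16 (R 4.3.3), with replicate number as a block and library size as the sum over positions listed in both tables. The SE is the log2 change over the square root of F. Where given, it is smaller than the counting error of that site's own reads. SEs and p-values of this fit can thus overstate precision. In the series design a replicate is made of 1 treated and 1 untreated sample; deviations of same-numbered libraries correlated at 0.59 over 20660 positions. DESeq2 1.42.0 was an alternative. Scripts were tested on simulated counts drawn at a dispersion of 0.01 without the listing rule, which differs from the real data. There, 37% of 100 positions raised 2-fold and 100% of 100 raised 4-fold had an edgeR adjusted p under 0.05. Among unchanged positions there were 7 false calls. Regions come from GENCODE 29; 87.9% of Ensembl transcript positions matched. Bases of 18S are annotated positions less 1. Named are all distinct called U (the copy with most stop reads), up to 6 called sequences of other bases per direction, the smallest-p U of each class without a call and the next 10 U by p; other sites come from the fit against coverage. Of the called U, 1 is counted but not reported here. Members and lists were chosen with earlier results of these data known. No molecular identifiers are described, so the SEs and p-values do not account for duplicate reads either.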

Additional observations from a re-analysis of the deposited data

How the results depend on the processing

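Of 28 U called (15 distinct), 14 (9 distinct) were called when libraries were scaled to positions outside rRNA, which moved the median log2 change of all tested positions from -0.06 to -0.22 and gave 1 U lower; 12 (4 distinct) with DESeq2, with or without its independent filtering; 46 with copies summed; 72 (35 distinct) with library totals; and 262 (100 distinct) against coverage. Leaving out one library gave 0 to 24 (0 to 10 distinct). Other bases called higher went from 4 to 1 outside rRNA, 0 with DESeq2 (1 without its filtering), 9 with copies summed, 78 against coverage and 0 to 2 with a library left out; those called lower went from 18 to 64, 0, 31, 0 and 0 to 6, and to 3 with library totals. Control reads of the Terminator tables, counted differently by construction, gave 2080 U (1942 distinct) and 182 lower, and 2427 and 572 other bases. In HEK293T the 15 U became 54 with TMM (median of all positions from -0.14 to 0.02), 190 against coverage and 0 to 46 with a library left out. The interaction stayed at 0 in every setting run. Without the replicate block, 21 U (10 distinct) were called, all among the 28, and 7 in HEK293T; the pairing moved no other count by over 1.5 times. The 15 stayed above 0 in each setting that tested them, but not all stayed at 2-fold. Scaled to positions outside rRNA, 10 of the 15 did (lowest log2 change 0.83), and 14 did with copies summed or without the block. Without CMC- replicate 1 the lowest log2 change was 0.89. With Terminator-table controls 5 fell under 2-fold: 28S bases 5007, 3849, 1863 and 2633 to 0.83, 0.52, 0.33 and 0.15 and 18S base 1056 to 0.42 (edgeR adjusted p = 0.383 at base 2633). Without CMC+ replicate 1 or 2, the 11 tested ranged from 1.02 to 1.53 and from 0.98 to 1.55 with 0 called. Signs turned for the fallen 28S bases against coverage (0.07, 0.08, 0.10, 0.14 and 0.14), for tRNA-Asp-GTC-1-1 (0.45 against coverage, 0.72 with Terminator-table controls) and, with those controls, for 28S base 3816 and RNA5-8SP6 (-0.03 each). Where no construction explains a move, the cause was not tested. Precision is lowest where control reads are few, as at RPL19.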
